A study of Mus musculus with 5 samples.

Results

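The transcriptome of normal CD4 single-positive (CD4 SP) thymocytes was described from the 3 wild type (WT) libraries of a series of 5, taken by their titles, with 1 library per mouse. All 55487 annotated genes of the count tables were used. The mice were C57BL/6J, carried no engineered allele, received no treatment, and were between 21 and 30 days old by the study's methods. Thymocytes were depleted of cells with high CD24, and live cells with CD4 and TCRβ but without CD8 and without binding of the αGalCer-loaded CD1d tetramer were sorted at a purity above 98%. RNA with an integrity number of 9 or higher was copied by SMART-seq, a method that turns little RNA into full-length cDNA. A bulk library averages all sorted cells, so fewer cells of a type and less RNA per cell cannot be told apart for any gene given here. The other 2 libraries, from *Tet2/3* DKO mice, entered no value.

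CD4 SP cells arise in the thymus from CD4 CD8 double-positive cells whose T cell receptor (TCR) binds peptide on MHC class II. The choice of the CD4 lineage depends on the transcription factors GATA3, SATB1 and Th-POK (encoded by *Zbtb7b*), while RUNX3 directs the CD8 lineage and silences *Cd4*. As CD4 SP cells mature they shut off the recombination genes, lose CD24 and take up the receptors that guide them through the medulla and out to the blood.

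The 5 marker genes of the population were all present, with *Ccr7* and *Satb1* the highest and *Zbtb7b* the lowest. A gene was called detected when it had at least 1 CPM (its count scaled to 1000000 counts on genes) in each of the 3 libraries. All 5 markers were detected, against 19.9% of all 55487 genes and 45.6% of the 21974 protein coding genes. *Ccr7* (ENSMUSG00000037944, mm10 chromosome 11, 99144196 to 99155077), the receptor for the medullary chemokines CCL19 and CCL21, had 2183, 2179 and 2234 CPM in WT replicates 1, 2 and 3. They lay at most 1.03-fold apart, with a mean of 2199 ± 30.9 CPM (SD, n = 3, as for every ± below). *Satb1* (ENSMUSG00000023927, chromosome 17, 51736187 to 51833290), a chromatin organiser that acts with Th-POK in lineage choice, had 1305, 1436 and 1390.0 CPM. *Cd4* (ENSMUSG00000023274, chromosome 6, 124864692 to 124888221), the co-receptor itself, had 625, 759 and 575 CPM and was highest in WT replicate 2. *Gata3* (ENSMUSG00000015619, chromosome 2, 9857078 to 9890034) had 102, 120.4 and 105 CPM. *Zbtb7b* (ENSMUSG00000028042, chromosome 3, 89377644 to 89394776) had 975, 1228 and 1152 counts, or 37.1, 52.2 and 42.2 CPM, and was lowest in WT replicate 1. Per base of exon the order was *Ccr7* (3162 TPM), *Cd4* (462), *Satb1* (206), *Gata3* (78.3) and *Zbtb7b* (22.4), where TPM divides counts by the summed exon length of a gene before scaling each library to the same total. The annotated exons of *Satb1* cover 19027 bases, against 4032 for *Cd4*, so their order differs between the scales. With the length of the longest transcript instead, *Satb1* had 469.7 TPM and *Cd4* 448 TPM, so the order of *Cd4* and *Satb1* per length depends on the length used.

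The libraries held 26275585, 23529075 and 27267031 counts on genes. Reads set aside because they mapped to several places came to 7.88% to 8.08% of all reads, and those on overlapping genes to 6.55% to 6.73%. The floor used for a count of 0, which is 3 counts, equalled 0.110 to 0.128 CPM and covers counting error only. Reads lay on the strand of read 1 in 49.9% to 50.1% of cases, so counts without regard to strand were used, and reads from a gene and from a gene that overlaps it on the other strand cannot be told apart. By its label WT replicate 1 came from a female, while the study's RNA-seq methods name male mice. In the library labelled female *Xist* had 0 counts, and all 3 libraries held counts of the Y-linked genes *Eif2s3y* (3890, 3608 and 4266), *Ddx3y*, *Uty* and *Kdm5d*.

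Detection fell into 3 ranges. There were 11016 detected genes, 5947 genes with more than 3 counts in a library but under 1 CPM in at least 1 of the 3, and 38524 genes (69.4%) with at most 3 counts in every library, of which 32811 had none. Of the detected genes 10014 were protein coding, 244 were processed pseudogenes, 153 were lincRNAs and 142 were antisense genes. The median detected gene had 29.7 CPM. A mean of at least 100 CPM was reached by 2345 detected genes (21.3%), and 111 had a mean of at least 1000 CPM. Protein coding genes took 97.9% of all counts, the mitochondrial genome 0.851% ± 0.0480 and the 8 TCR constant genes 0.507% ± 0.0274.

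The genes with the most counts included several of the actin cytoskeleton, MHC class I and TCR signalling, named as such after their values had been seen. The 10 highest genes held 5.88% ± 0.173 of the counts, the 100 highest 21.6% ± 0.329 and the 1000 highest 56.6% ± 0.493. *Actb*, cytoplasmic actin, was the highest with 10020.5, 11423 and 8813 CPM and differed more between libraries than the next 4 genes. *Tmsb4x*, the actin monomer binding protein thymosin β4, had 8983, 8559 and 9114 CPM, and *Coro1a*, the actin regulator coronin 1A that thymocytes need to leave the thymus, had 5789, 5916 and 5717 CPM. Profilin 1 (*Pfn1*), the small GTPase *Rac2* and its inhibitor *Arhgdib* also stood among the 25 highest. MHC class I was represented by *H2-D1* (7509.8 ± 368 CPM), *H2-K1* (4409.5 ± 162 CPM) and their light chain *B2m* (4425 ± 227 CPM). *H2-D1* and *H2-K1* are close relatives, and their values rest on the reads that mapped to a single place. *Lck*, the kinase bound to CD4, had 3623, 3417 and 3414 CPM, and *Cd3g* and *Trac* were the other members of the TCR complex among the 25. *Ldha*, *Eno1* and *Atp5b*, which serve glycolysis and ATP synthesis, were also among them, as was *Lars2*, a mitochondrial leucyl-tRNA synthetase, with 5309.7 ± 602 CPM.

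**Figure D1:**
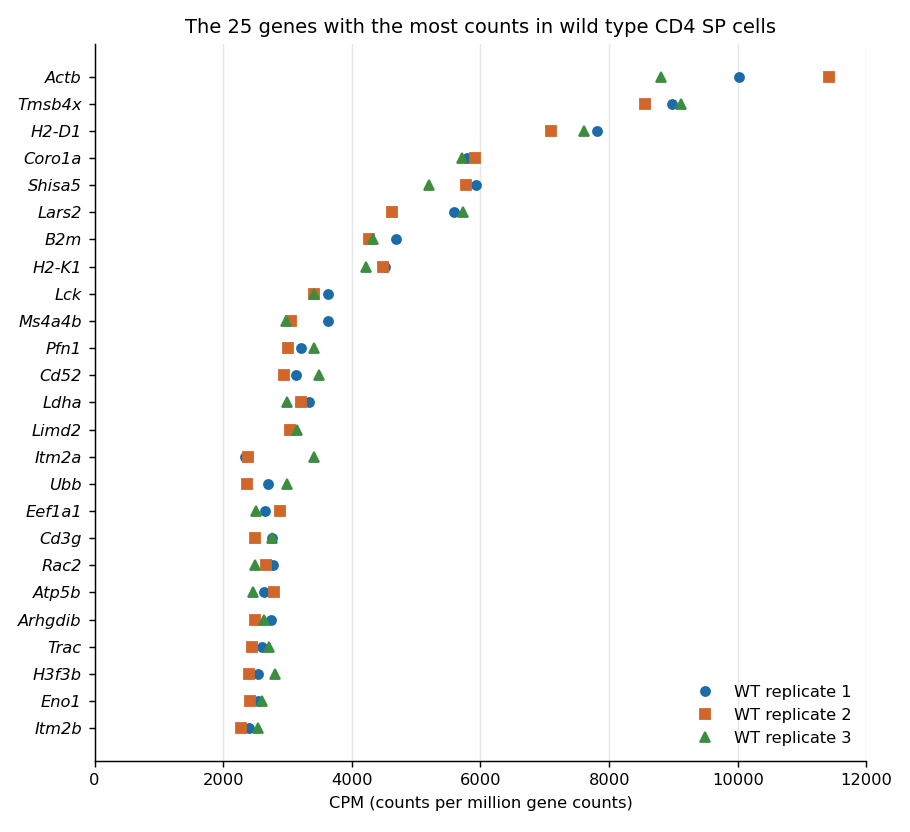
CPM in each wild type library (x axis, linear from 0) of the 25 genes with the highest mean CPM (y axis). *Actb* runs from 8813 CPM in WT replicate 3 to 11423 CPM in WT replicate 2, and *Itm2a* stands higher in WT replicate 3 (3417 CPM) than in the other libraries.

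Per length the order changed, and *B2m*, *Trac*, *Cd52* and *Ifi27l2a* ranked higher than by CPM. *Tmsb4x* had 18430.2 ± 245 TPM, *B2m* 14638 ± 739.9, *Actb* 10729.9 ± 1612, *H2-D1* 8280.3 ± 300.1 and *Trac* 7874 ± 238 TPM. *Cd52*, a short surface glycoprotein of lymphocytes, had 7637 ± 516 TPM, and *Ifi27l2a*, an interferon-induced gene, had 7335 ± 101 TPM. The top value, 25459 ± 5669 TPM, belonged to *Gm23935*, which the annotation gives as a miRNA gene with 57 bases of exon. With the length of the longest transcript *Tmsb4x* (21885 TPM) stood above *Gm23935* (19056 TPM), and *Cd52* had 13198 TPM. The value of *Gm23935* rests on 13113, 9281 and 17498 counts divided by that length. Of the 79 ribosomal protein genes found by symbol 75 were detected, against 45.6% of protein coding genes. Together the 79 took only 2.14% ± 0.0455 of the counts, with reads that map to several places left out.

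All 21 genes of the TCR complex and its proximal signalling were detected, against 19.9% of all genes and 45.6% of protein coding genes. All 21 had a mean of at least 100 CPM, against 21.3% of all detected genes. On the TPM scale the constant gene of the α chain, *Trac* (7874 ± 238), stood above *Trbc2* (5039.9 ± 243) and *Trbc1* (4645 ± 177), the constant genes of the β chain. *Trbc2* over *Trbc1* was 1.08 ± 0.0135, and these genes are nearly identical copies whose shared reads were not counted. Among the CD3 chains, the γ chain gene *Cd3g* had 2326 ± 91.0 TPM, *Cd3d* 2118 ± 112, *Cd3e* 489 ± 28.5 and *Cd247*, the ζ chain, 382 ± 14.6 TPM. For *Cd3e* the counts on each strand alone summed to 1.75 times the count used, so part of its reads may have been set aside as shared with a gene on the other strand. The kinases *Lck* (3485 CPM), *Zap70* (424) and *Fyn* (331), and the adaptors *Lat* (1221) and *Lcp2* (539), covered the chain from receptor to scaffold. *Lcp2*, which encodes SLP-76, was also among the 10 genes with the lowest edgeR dispersion, with 529.5, 549 and 539 CPM. *Cd5*, whose level follows the strength of TCR signalling in thymocytes, had 881, 949 and 891 CPM.

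Variable gene segments were broadly used. Of 22 *Trbv* genes 19 were detected, against 19.9% of all genes, and none was at or under 3 counts in every library. The *Trbv* genes had a sum of 976, 962 and 1047 CPM. *Trbv13-2* (103, 109 and 108 CPM) and *Trbv3* (103, 105 and 105 CPM) were the highest and *Trbv19* and *Trbv16* followed. Of 108 *Trav* genes 62 were detected, with a sum of 571, 524 and 584 CPM, and 38 were at or under 3 counts in every library. *Trav* genes are present in duplicated copies, so single *Trav* values are uncertain. In contrast, 2 of 5 *Trdv* genes were detected with a sum of 4.68, 5.31 and 6.49 CPM. These segments were named after their values had been seen.

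All 20 transcription factors of the T lineage were detected, against 45.6% of protein coding genes. *Satb1* (1377 ± 66.6 CPM), the TCF1 gene *Tcf7* (1286 ± 115), *Ets1* (797 ± 34.8) and *Lef1* (659 ± 15.9) were the highest, and *Ikzf3* (34.5 ± 3.85) the lowest. *Bcl11b*, which holds T cells to their lineage, had 155, 207 and 154 CPM, and *Tox*, which CD4 lineage development requires, had 162, 184 and 179 CPM. Of the 20 genes, 14 were highest in WT replicate 2, 5 in WT replicate 3 and 1 in WT replicate 1, where 40.6%, 38.9% and 20.4% of all detected genes were. The counts of 14, 5 and 1 did not change with TMM library sizes, where the shares of all detected genes were 34.3%, 35.5% and 30.2%, or with DESeq2 size factors (35.6%, 35.8% and 28.6%).

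Genes of late maturation and egress were abundant, and all 13 had a mean of at least 100 CPM, against 21.3% of all detected genes. *Klf2*, which switches on the egress program, had 413, 424 and 468 CPM, and its target *S1pr1*, the receptor that draws cells towards the blood, had 824, 825 and 712 CPM. *Il7r*, the receptor for the survival cytokine IL-7, had 292, 303 and 289.9 CPM. *Cd69*, a retention signal that recently selected cells carry, was present at 229, 231 and 241 CPM. The late maturation genes *Ms4a4b* (3218 ± 354 CPM), *Itgb7* (1325 ± 131), *Slfn2* (1384 ± 115), *Slfn1* (911 ± 70.8) and *H2-Q7* (183 ± 11.6) were likewise present. Per length, *Ccr7* stood 4.33 ± 0.437 times above *S1pr1*.

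**Figure D2:**
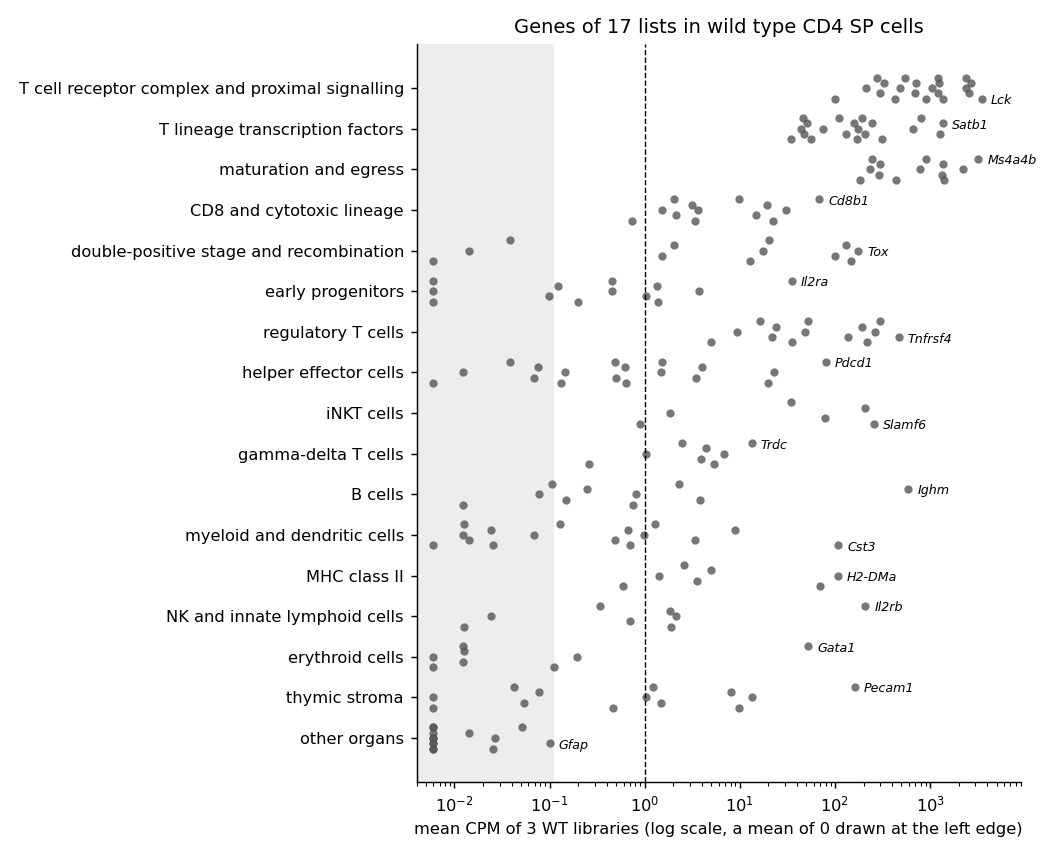
Mean CPM over the 3 wild type libraries (x axis, log scale) of every gene of 17 lists (y axis), with the highest gene of each list named. The dashed line marks 1 CPM and the grey zone lies below 0.11 CPM, about 3 counts in a library. All genes of the top 3 lists lie above 30 CPM, and no gene of the last list reaches 1 CPM.

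CD8 lineage genes were mostly low, apart from *Cd8b1*, but not absent. *Cd8a*, the α chain of the co-receptor that the sort excluded, had 70, 69 and 148 counts, or 2.66, 2.93 and 5.43 CPM, with the highest value in WT replicate 3. *Cd8b1*, its β chain, had 65.8, 66.5 and 72.1 CPM, above the 29.7 CPM of the median detected gene. Per length *Cd8b1* lay 49.6 ± 14.9 times above *Cd8a*, and *Cd4* lay 180.2 ± 74.1 times above *Cd8a* and 3.54 ± 0.635 times above *Cd8b1*. *Runx3* had 18.5, 21.5 and 18.0 CPM, and *Zbtb7b* over *Runx3* was 2.02 ± 0.197 per length. Of the 13 genes of the CD8 and cytotoxic list 11 were detected, against 45.6% of protein coding genes, none with a mean of 100 CPM, among them *Nkg7* (30.4 ± 6.36 CPM), *Prf1* (perforin, 22.5 ± 1.02) and *Eomes* (2.16 ± 0.450). *Gzmk* was not called detected, with 16, 15 and 91 counts, most of them in WT replicate 3.

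The recombinase genes *Rag1* and *Rag2* were at the floor, while other genes of the double-positive stage were still present. *Rag1* had 0 counts in every library and *Rag2* had 0, 1 and 0. A count of 0 allows up to 3 counts, or 0.110 to 0.128 CPM. *Ptcra*, the surrogate α chain, had 3, 0 and 0 counts. *Dntt*, the terminal transferase that adds bases at joints, had 16.9, 23.8 and 19.4 CPM. *Cd24a*, whose high-level cells had been depleted, had 260, 232 and 511 counts or 9.90, 9.86 and 18.7 CPM, about as low in WT replicates 1 and 2 and higher in WT replicate 3. *Ccr9*, a thymic homing receptor of immature cells, was also highest in WT replicate 3, with 94.1, 118 and 181 CPM. Of the 12 genes of the list 8 were detected, against 45.6% of protein coding genes, with *Tox*, *Cd1d1*, *Ccr9* and *Themis* at a mean of 100 CPM or more. The 13 early progenitor genes had a median of 0.456 CPM, and 4 of them were detected, against 45.6% of protein coding genes. These were *Il2ra* (35.1 ± 2.20 CPM), *Myb* (3.76 ± 0.368), *Kit* (1.38 ± 0.105) and *Lmo2* (1.35 ± 0.200), and *Tal1*, *Gfi1b* and *Bcl11a* had 0 counts in every library.

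Regulatory T cell genes were all found. The 14 genes of the list were all detected, against 45.6% of protein coding genes. A mean of at least 100 CPM was reached by 6, against 21.3% of all detected genes. *Foxp3*, the defining factor, had 1147, 1379 and 1490 counts or 43.7, 58.6 and 54.6 CPM. The TNF receptor family members *Tnfrsf4* (464, 406 and 529.8 CPM), *Tnfrsf18* (215, 187 and 245 CPM) and *Tnfrsf9* (123, 147 and 146 CPM) were higher, and *Ikzf2* (Helios), *Ctla4*, *Il2ra* and *Nrp1* lay between 21.7 and 48.4 CPM. *Capg*, *Izumo1r* and *Gpr83* had means of 264, 296 and 191 CPM. Counts on each strand alone summed to 1.77 times the count used for *Foxp3* and to 2.20 times for *Tnfrsf18*. *Foxp3* cells pass the CD4+ CD8- TCRβ+ gate, and whether few cells with much RNA or many with little carry these genes cannot be told apart.

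The 18 genes of differentiated helper cells had a median of 0.557 CPM. Of these 7 were detected, near the 45.6% of protein coding genes, led by *Pdcd1* (79.6 ± 3.57 CPM), *Cxcr3* (23.0 ± 7.26) and *Ccr6* (20.0 ± 1.55). *Tbx21*, which encodes the Th1 factor T-bet, had 93, 61 and 113 counts or 3.54, 2.59 and 4.14 CPM. Among the cytokine genes of the list *Il21* was detected, with 39, 48 and 28 counts or 1.48, 2.04 and 1.03 CPM, and the others were under the detection rule. *Ifng* had 18, 6 and 27 counts, *Il4* 18, 16 and 13, *Il2* 21, 7 and 11 and *Il17a* 0, 0 and 1, and *Il22* had 0 counts in every library.

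Innate-like T cell genes were divided. *Zbtb16*, which encodes the iNKT cell factor PLZF, had 32, 13 and 24 counts, under 1 CPM in 2 of the 3 libraries, in a sort that excluded tetramer-binding cells. *Klrb1c*, the NK1.1 gene, had 2.32, 1.66 and 1.58 CPM. The other genes of that list are also used by conventional T cells, and *Slamf6* (256 ± 15.7 CPM) and *Il2rb* (209 ± 15.6) were the highest. Of 8 γδ T cell genes 6 were detected, against 45.6% of protein coding genes, none above 13.4 CPM, the mean of *Trdc* (302, 279 and 457 counts). For *Trdc* the counts on each strand alone summed to 1.86 times the count used, so 13.4 CPM may understate its level.

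Markers of other blood and stromal cells were low apart from single genes, in libraries where 45.6% of protein coding genes were detected. Among B cell genes, *Ighm*, the constant region of the IgM heavy chain, had 625, 549.6 and 601 CPM, while *Pax5* had 0, 0 and 1 counts and *Ms4a1* 2, 7 and 2. *Cd79b* (3.82 ± 0.348 CPM) and *Cd79a* (2.31 ± 0.776 CPM) were the other detected genes of the 10, and per length *Ighm* lay 118.7 ± 17.8 times above *Cd79b*. In the erythroid list a single gene likewise stood out, the erythroid factor *Gata1* with 54.8, 51.2 and 50.4 CPM, while *Hbb-bs* had 0 counts in every library and *Hba-a1*, *Hba-a2* and *Hbb-bt* at most 1. Of 16 myeloid and dendritic genes 3 were detected, led by *Cst3* (108 ± 9.66 CPM), which many tissues express. *Lyz2* had 279, 246 and 160 counts, the fewest in WT replicate 3, and *Csf1r*, *Cd14*, *Itgax*, *S100a8* and *S100a9* had at most 7 in any library.

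MHC class II genes differed widely in level. Of 7 genes 6 were detected, against 45.6% of protein coding genes, but *Cd74* (62.6, 57.2 and 88.1 CPM) and *H2-DMa* (107, 99.0 and 114 CPM) stood far above *H2-Ab1*, *H2-Aa* and *H2-Eb1*, which had means of 5.00, 3.56 and 2.58 CPM. *Ciita*, the class II transactivator, was under 1 CPM in every library with 12, 16 and 17 counts. Of 13 stromal genes 5 were detected, near the 45.6% of protein coding genes. *Pecam1*, which T cells also express, had 162 ± 18.4 CPM, and *Psmb11*, the cortical epithelial proteasome gene, had 39, 22 and 18 counts. None of 14 genes of other organs was detected, and 12 of them had at most 3 counts in every library.

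Cytokine receptor genes were detected in 18 of 19 cases, against 45.6% of protein coding genes, and 11 had a mean of at least 100 CPM. The common γ chain *Il2rg* (809.9 ± 55.5 CPM) and *Il21r* (520.3 ± 53.2) led, and per length *Il7r* stood 10.3 ± 0.789 times above *Il2ra*. Of 19 chemokine receptor genes 10 were detected, near the 45.6% of protein coding genes that were. After *Ccr7*, *Ccr8* (202, 199 and 245 CPM) and *Ccr9* were the highest, and *Cxcr4*, the receptor that holds immature thymocytes in the cortex, had only 1.03, 1.23 and 1.94 CPM. Of the 10 detected receptors 7 were highest in WT replicate 3 (6 with TMM library sizes), against 38.9% of all detected genes (35.5% with TMM library sizes). Among integrins, a pair of β chains stood far above an α chain each pairs with, with *Itgb7* over *Itga4* at 151.0 ± 28.5 and *Itgb2* over *Itgal* at 20.2 ± 2.53 per length.

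Cell cycle genes were present beside genes of quiescence. All 13 proliferation genes were detected, against 45.6% of protein coding genes, and 8 had a mean of at least 100 CPM. *Pcna* (327 ± 6.44 CPM), *Rrm2* (282 ± 9.01) and *Mcm5* (251 ± 25.9) were the highest, and *Mki67* had 84.0, 97.3 and 75.1 CPM. All 12 quiescence genes were detected as well, led by *Slfn2* and the antiproliferative *Btg1* (767 ± 19.5 CPM). *Cdkn1b*, which encodes the cell cycle inhibitor p27, had 59.9, 59.3 and 61.9 CPM. In glycolysis 16 of 17 genes were detected, against 45.6% of protein coding genes. The exception was *Hk2* (14, 10 and 21 counts), while *Hk1* had 114 ± 13.1 CPM. The glucose transporter *Slc2a1* lay 3.25 ± 0.580 times above *Slc2a3* per length. Of the death regulators, *Mcl1* (190.0 ± 20.9 CPM) and *Bcl2* (149.7 ± 2.79 CPM) were the only 2 of 12 with a mean of at least 100 CPM, and the pro-apoptotic *Bcl2l11* had 7.38, 9.99 and 12.6 CPM.

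MHC class I presentation was detected in full, 12 of 12 genes, against 45.6% of protein coding genes. Of the 12 genes 11 had a mean of at least 100 CPM, and *Nlrc5*, the transactivator of MHC class I, had 41.2 ± 3.25 CPM. The peptide transporter genes *Tap1* and *Tap2* had 475 ± 17.0 and 203 ± 2.99 CPM, and counts on each strand alone summed to 2.33 times the count used for *Tap2* and 2.61 times for the neighbouring immunoproteasome gene *Psmb8*. Genes of DNA methylation were detected in 11 of 12 cases, against 45.6% of protein coding genes, and the exception was *Dnmt3l* (0, 4 and 1 counts). Per length, *Dnmt3a* (27.2 ± 0.796 TPM) and *Dnmt1* (24.7 ± 1.67 TPM) were close, with *Dnmt1* below *Dnmt3a* in each library (*Dnmt1* over *Dnmt3a* was 0.910, and 0.666 with the length of the longest transcript), and *Dnmt3b* had 10.1 ± 1.54 TPM. The *Tet* genes, whose proteins oxidise 5-methylcytosine, had 9.24 ± 0.494 TPM for *Tet2*, 8.05 ± 0.748 for *Tet3* and 7.37 ± 0.426 for *Tet1*. *Tet2* stood above *Tet3* in all 3 libraries by 1.15 ± 0.0524 times and *Tet3* above *Tet1* by 1.09 ± 0.111 times, and these ratios were 1.38 and 1.56 with the length of the longest transcript. The values of neighbours in this order overlapped between libraries.

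Families of signalling and transcription factors differed in how far their highest member stood above the next. *Lck* made up 93.9% of the summed TPM of 8 SRC family kinases and stood 15.8 ± 1.73 times above *Fyn*. *Foxo1*, which drives *Il7r* and *Klf2*, made up 94.5% of the FOXO family and *Jak1* 81.9% of the JAK family. In the TCF and LEF family *Tcf7* stood 6.52 ± 0.447 times above *Lef1*, a ratio that was 2.88 with the length of the longest transcript, and counts on each strand alone summed to 1.42 times the count used for *Lef1*. *Id3*, an inhibitor of E proteins that TCR signalling raises, had 778 ± 40.2 TPM and stood 8.54 ± 0.674 times above the E protein gene *Tcf3*. Among 12 KLF genes *Klf2* (670.0 ± 36.0 TPM) and *Klf13* (239 ± 2.95) led. Of the 12 genes 7 were detected, against 45.6% of protein coding genes. In the GATA family only *Gata3* (78.3 ± 8.35 TPM) and *Gata1* (60.8 ± 3.10) were detected, at 1.29 ± 0.148, and the other 4 had at most 3 counts in every library. *Runx3* and *Runx1* did not separate, with *Runx3* over *Runx1* at 1.06, 1.08 and 0.883 in WT replicates 1, 2 and 3, and at 0.634 with the length of the longest transcript.

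**Figure D3:**
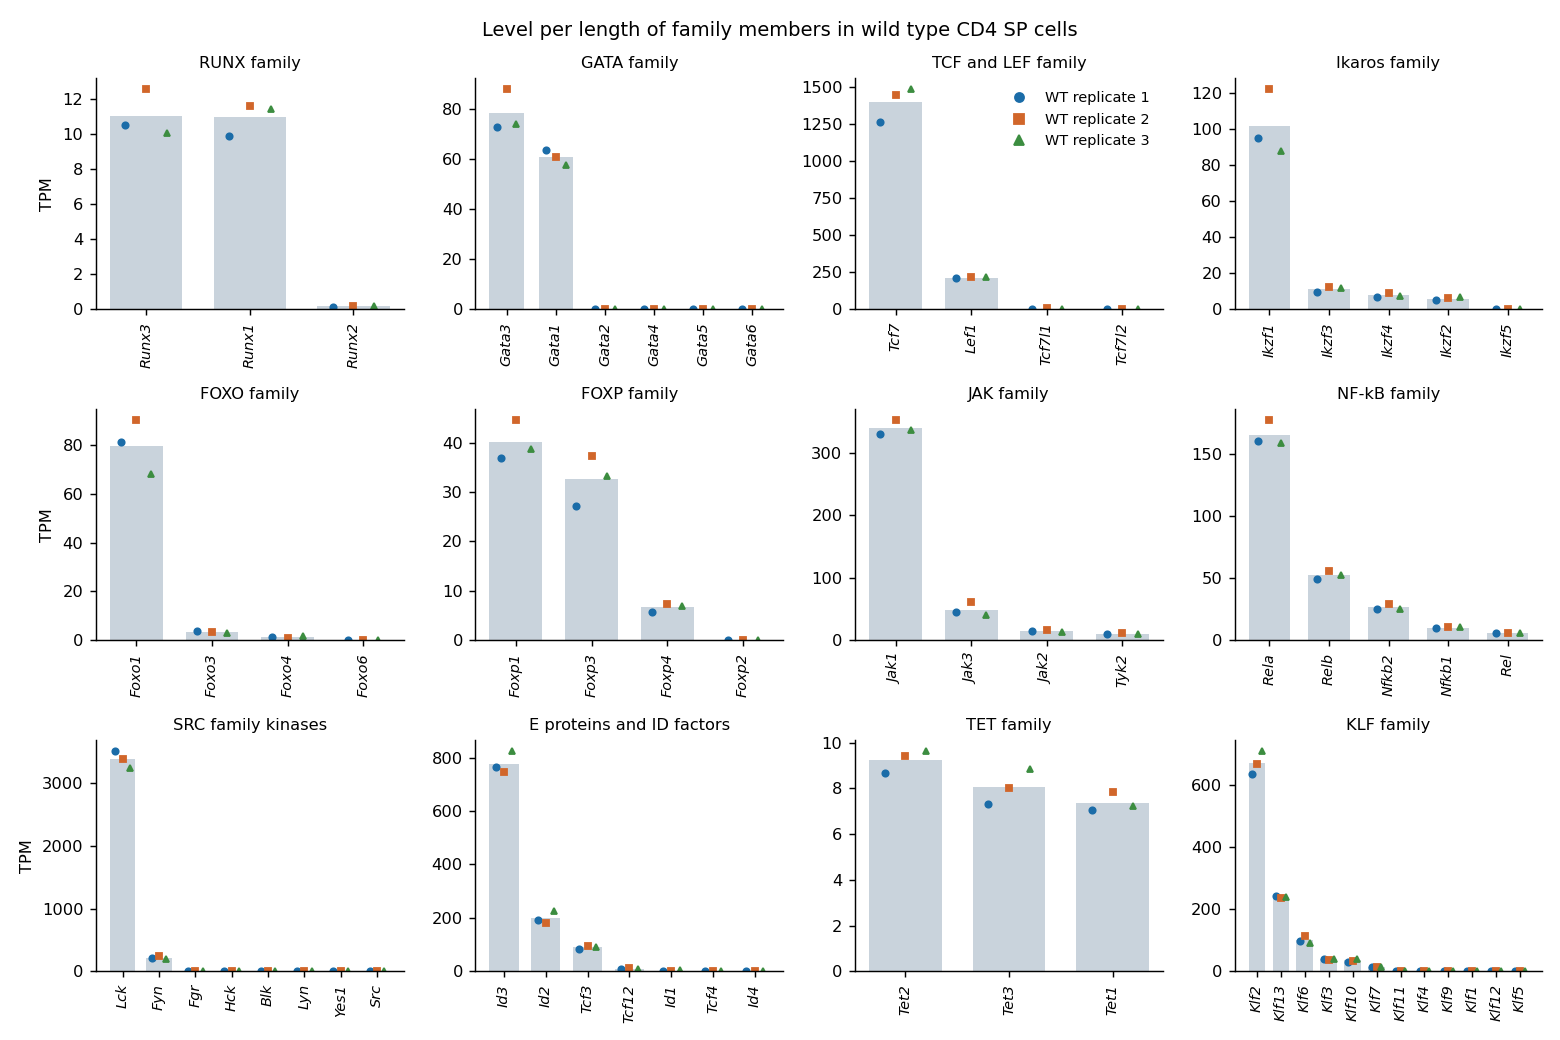
TPM (y axis, linear from 0, a scale of its own in each panel) of the members of 12 gene families. Bars are means of the 3 wild type libraries and points are the libraries. *Lck*, *Foxo1*, *Tcf7* and *Jak1* stand far above the rest of their families, while *Runx3* and *Runx1* and the 3 *Tet* genes lie at similar heights.

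The libraries were close to each other but further apart than counting error. Pearson's r of log2 CPM over the detected genes was between 0.992 and 0.995 for the 3 pairs, as a description across genes. The median difference between 2 libraries was 0.122 to 0.163 on the log2 scale, and 34 to 56 of 11016 genes differed 2-fold or more in a pair. The chi-square of the counts per gene was 10.1 to 20.1, where 1 is expected from counting error, so no pair looked like a library deposited again. Over the 11406 genes with a mean of at least 1 CPM the median CV (SD over mean) was 8.49%, against 3.77% from counting error alone. The CV fell from a median of 19.7% between 1 and 3 CPM to 4.69% between 300 and 1000 CPM, and was 5.39% for the 111 genes above. The common biological coefficient of variation of edgeR, which takes counting error out, was 9.05%, and it was 11.0% without WT replicate 1 and 7.68% without WT replicate 3. WT replicates 2 and 3 were the pair farthest apart.

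**Figure D4:**
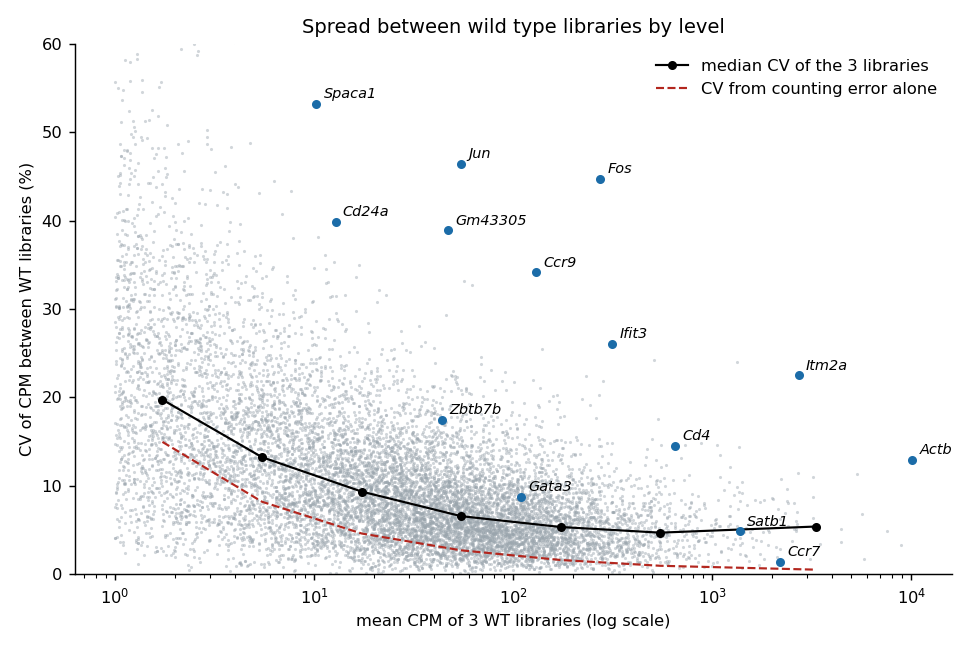
CV of CPM between the 3 wild type libraries (y axis, in percent) against mean CPM (x axis, log scale) for 11406 genes, of which 22 lie above the 60% where the axis ends. Black points join the median CV of 7 ranges of level, drawn at the middle of each range on the log scale, and the dashed line is the CV from counting error. *Ccr7* and *Satb1* lie near or below the median, while *Fos*, *Jun* and *Spaca1* stand far above it.

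Few well expressed genes differed 2-fold between libraries. Of 7909 genes with a symbol and a mean of at least 10 CPM, 5 were 2-fold or more apart between their lowest and highest library, which were *Spaca1*, *Fos*, *Gm43305*, *Jun* and *Ppm1f*. *Spaca1*, known from sperm, had 279, 109 and 424 counts, and *Gm43305*, annotated as a processed transcript, had 1715, 1134 and 776. The 15 genes with the highest dispersion had CVs from 31.4% to 53.2%, and 8 of them (53.3%) were highest in WT replicate 3, against 38.9% of all detected genes, among them *Cd24a*, *G0s2*, *Avpi1* and *Tsc22d1*. The 10 genes with the lowest dispersion in edgeR, a ranking that differs from one by CV, had CVs from 1.29% to 2.36%. These were *Jak1* (840.0, 874 and 869.6 CPM), the 14-3-3 gene *Ywhab* (600.1, 619 and 611 CPM), *Lcp2*, *Gnai2*, *Pkm*, *Ddx5*, *Hnrnpk*, *Rac1*, *Arhgap1* and *Akr1a1*.

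Interferon-stimulated genes were abundant, and nearly all were highest in the same library. All 16 were detected, against 45.6% of protein coding genes, and 11 had a mean of at least 100 CPM. *Ifi27l2a* (1210.0, 1173 and 1199 CPM) was the highest and the most even. *Ifit1*, which binds RNA that lacks the host cap, had 646, 517 and 498 CPM, and *Irf7*, a factor that amplifies type I interferon, had 597, 511 and 500.0 CPM. In WT replicate 1, 15 of the 16 were highest, against 20.4% of all detected genes. With TMM library sizes or DESeq2 size factors all 16 were highest there, against 30.2% and 28.6% of all detected genes. The excess was small for most, with a median ratio to the mean of the 3 libraries of 1.11 in WT replicate 1, against 0.984 over all detected genes. It was largest for *Mx1* (14.0, 8.37 and 7.66 CPM), *Ifit3* (409.8, 273 and 263 CPM) and *Rsad2* (96.5, 74.0 and 61.3 CPM). The cause of the difference was not tested.

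The promoters of the 4 highest of these genes that hold the motif GAAANNGAAA, the core of the interferon-stimulated response element, are shown because they carry the sequence feature the list is known for. They are RefSeq windows of GRCm38.p6, 250 bases before to 50 after the gene's start, 5′ to 3′ on the strand of the gene, with the motif on either strand in capitals. They lie at chr19:34640639-34640938 on the plus strand (*Ifit1*), chr19:34583279-34583578 on the plus strand (*Ifit3*), chr1:173942443-173942742 on the minus strand (*Ifi203*) and chr4:156200769-156201068 on the minus strand (*Isg15*).
Ifit1: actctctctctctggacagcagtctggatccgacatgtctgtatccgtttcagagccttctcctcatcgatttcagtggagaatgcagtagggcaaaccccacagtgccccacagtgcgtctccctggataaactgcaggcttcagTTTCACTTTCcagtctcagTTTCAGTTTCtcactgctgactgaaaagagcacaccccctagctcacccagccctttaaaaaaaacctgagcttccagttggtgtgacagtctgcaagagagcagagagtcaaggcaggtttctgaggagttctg
Ifit3: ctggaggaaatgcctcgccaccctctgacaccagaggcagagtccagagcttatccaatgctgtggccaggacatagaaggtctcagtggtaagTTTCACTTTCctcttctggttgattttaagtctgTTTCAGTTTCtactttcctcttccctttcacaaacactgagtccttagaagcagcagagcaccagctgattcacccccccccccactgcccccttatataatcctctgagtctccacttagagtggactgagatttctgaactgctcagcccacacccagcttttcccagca
Ifi203: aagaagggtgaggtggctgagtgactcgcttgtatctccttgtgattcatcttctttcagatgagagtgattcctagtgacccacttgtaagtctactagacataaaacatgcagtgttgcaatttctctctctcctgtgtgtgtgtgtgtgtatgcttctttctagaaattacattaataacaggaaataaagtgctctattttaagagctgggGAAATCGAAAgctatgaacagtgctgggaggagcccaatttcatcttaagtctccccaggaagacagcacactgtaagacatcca
Isg15: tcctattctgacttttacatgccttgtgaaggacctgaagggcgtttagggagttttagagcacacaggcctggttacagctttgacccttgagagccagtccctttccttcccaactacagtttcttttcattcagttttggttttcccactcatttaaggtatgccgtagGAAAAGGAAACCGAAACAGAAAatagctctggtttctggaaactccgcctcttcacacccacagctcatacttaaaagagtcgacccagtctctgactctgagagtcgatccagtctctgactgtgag

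On the strand shown a match reads GAAANNGAAA, a match on the other strand reads TTTCNNTTTC, and in *Isg15* 3 matches overlap in 1 run. Of the 16 genes 12 had a window in the table and 8 of these held the motif, against 3.99% of 27025 genes in the table and 3.87% of 8328 detected genes. The windows of *Irf7*, *Irf9*, *Ifit2* and *Xaf1* did not hold these letters. *Ifit1* and *Ifit3* each held 2 matches in the orientation TTTCNNTTTC, and the window shown for *Ifi203* held 1 match in the orientation GAAANNGAAA. A further window of *Ifi203*, chr1:173942623-173942922, held no match, and the gene was counted among the 8 by the window shown.

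Immediate early genes differed between libraries in another way. Of 18 genes 16 were detected, none of them highest in WT replicate 1, 6 (37.5%) in WT replicate 2 and 10 (62.5%) in WT replicate 3, against 20.4%, 40.6% and 38.9% of all detected genes. With TMM library sizes these counts were the same, and the shares of all detected genes were 30.2%, 34.3% and 35.5%. *Fos* had 6109, 9653 and 4805 counts or 232, 410.3 and 176 CPM and *Jun* 42.8, 83.8 and 37.4 CPM, both highest in WT replicate 2, as were *Zfp36* (124, 169.7 and 116 CPM) and *Junb* (576, 710.4 and 631 CPM). Other members, such as *Nr4a1* (179, 194 and 221 CPM), *Egr1* (103, 129 and 138 CPM), *Egr2* (36.9, 34.4 and 43.0 CPM) and *Myc* (119, 129 and 158 CPM), were highest in WT replicate 3. Related genes did not always share a library, since *Nr4a2* (3.01, 4.55 and 3.30 CPM) was highest in WT replicate 2 and *Jund* and *Ier2* (258, 266 and 306 CPM) in WT replicate 3. For *Jund*, counts on each strand alone summed to 16.4 times the count used, so its 16.4 CPM is no measure of its level. The inducible heat shock genes *Hspa1a* (5, 10 and 2 counts) and *Hspa1b* (8, 5 and 0) stayed close to the floor, while the constitutive *Hspa8* had 1255, 1267 and 1199.5 CPM.

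**Figure D5:**
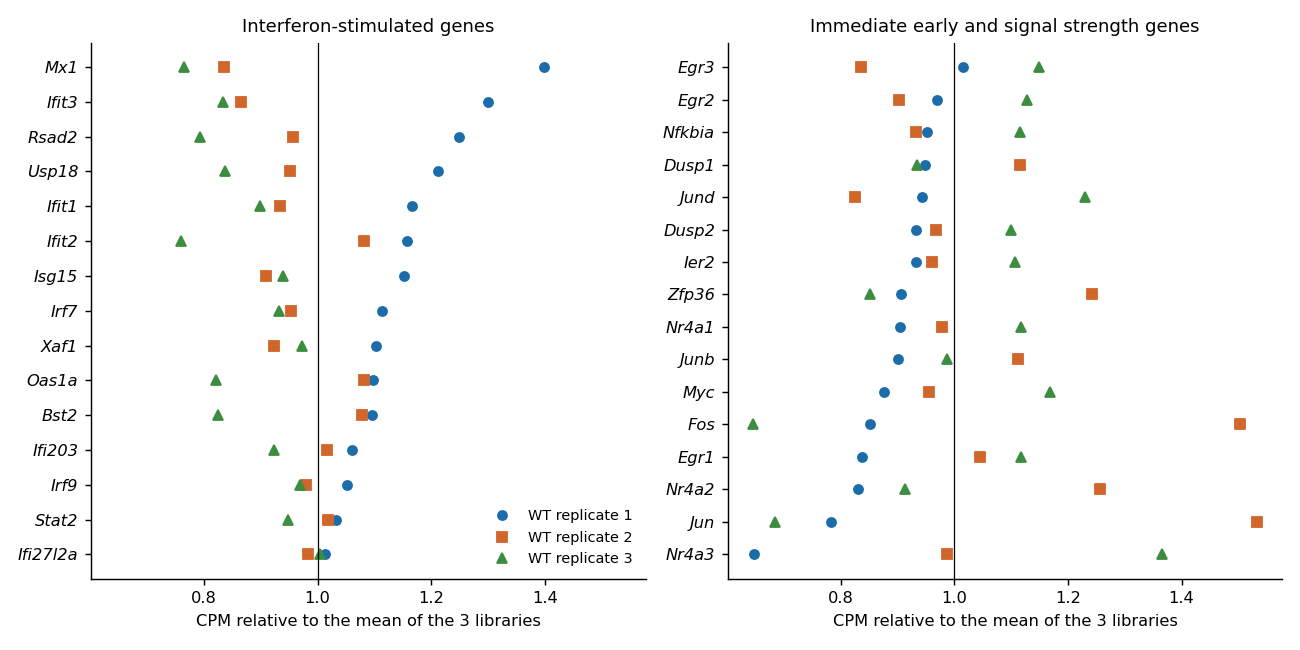
CPM in each wild type library over the mean of the 3 libraries (x axis, linear) for 15 of the 16 detected interferon-stimulated genes (left) and immediate early genes (right). WT replicate 1 is farthest to the right for all 15 interferon-stimulated genes shown, and for no immediate early gene.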

How the data were processed

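RNA-seq counts of 3 WT libraries, 1 per mouse, were used. The authors trimmed the reads with fastp 0.21.0, aligned them to mm10 with STAR 2.7.5a, using the annotation GRCm38.100, and deposited raw counts of reads per gene, without normalization and without molecular identifiers. Column totals of the counts without regard to strand served as library sizes for CPM, and the 4 summary lines of each table were left out. Symbols, coordinates and exon lengths came from GENCODE M21 (55227 of 55487 identifiers matched), and TPM divided counts by the union of exons. edgeR 4.0.16 in R 4.3.3 gave the common dispersion with TMM sizes for genes with at least 1 CPM in every library, after a test on simulated data. No group was compared and no p-value was computed, and other files of the series were not used. The named genes are the 25 highest by CPM and by TPM, the members of 48 lists, and by edgeR's dispersion, at a mean of at least 10 CPM, the 15 most and 10 least variable genes with a symbol. Some genes of these lists are not reported here, though the counts over a list include them. The population and the lists were chosen with earlier results of these data known. Alternatives changed the scaling (TMM, or size factors of DESeq2 1.42.0), the strand column, the filter, the gene length or the libraries used.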

Additional observations from a re-analysis of the deposited data

How the results depend on the processing

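No paired analysis was possible because the results come from 1 group and from no test. The number of detected genes, 11016, was between 11123 and 11150 when single libraries were left out, and stayed within 1.5 times under every other alternative tried. The 100 highest genes held 21.4% to 21.7% of the counts without single libraries, 20.6% on the strand of read 1 and on the opposite strand and 18.8% when ranked by level per length. The median CV was 6.18% to 8.30% without single libraries, 6.78% for genes with a mean of at least 10 CPM and 12.4% with no filter. The common biological coefficient of variation was 7.68% to 11.0% without single libraries. Of 30 alternative values of the 5 markers 27 lay within 1 SD of the level given, and the exceptions were *Gata3* (124.7 CPM), *Satb1* (1246 CPM) and *Ccr7* (1964 CPM) on the strand of read 1. Of 16 families compared, the leading member changed in 1 with the length of the longest transcript, where *Runx3* over *Runx1* was 0.634. That length also put *Satb1* above *Cd4* and *Tmsb4x* above *Gm23935*. The number of interferon-stimulated genes highest in WT replicate 1, whose alternatives were chosen after seeing the data, was 15 of 16 with total counts, 16 with TMM or DESeq2 size factors and 14 on each strand. The causes of these differences were not tested. Depth limits low genes: between 3 and 10 CPM the median CV was 13.2%, against 8.19% from counting error.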

Other observations

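Reads on genes that overlap another gene were a limit for part of the transcriptome. For 806 of the 11016 detected genes (7.32%) the counts on each strand alone summed to at least 1.5 times the count used, and for 1895 (17.2%) to at least 1.1 times. Among the detected genes of the lists the ratio was highest for *Jund* (16.4 times), *Psmb8* (2.61), *Tap2* (2.33) and *Tnfrsf18* (2.20). For *Ikzf5*, an Ikaros family gene under the detection rule with 9, 13 and 11 counts, the ratio was 15.9.

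Some genes under the detection rule had most of their counts in 1 library. *Syce1*, a gene of the meiotic synaptonemal complex, had 9, 2 and 173 counts in WT replicates 1, 2 and 3. *Slc15a2*, a peptide transporter, had 83, 0 and 16 counts. *Gzmk*, which encodes granzyme K, had 16, 15 and 91 counts. These 3 had the highest CVs of all genes with a symbol and a mean of at least 1 CPM and were named after their values had been seen.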
